A study of Mus musculus with 12 samples.

Results

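Aminoacyl-tRNA synthetases are the enzymes that load each tRNA with its amino acid, so that the ribosome can read the message. Mammalian cells use one set of these enzymes in the cytosol and another in the mitochondrion. All are encoded in the nucleus, and most amino acids have a separate gene for each compartment, although Gars and Kars make the enzyme of both. Several cytosolic synthetases are known targets of ATF4, the transcription factor that is translated when cells lack amino acids or meet other stress, and 7 of the cytosolic enzymes measured here are held with scaffold proteins in a multi-synthetase complex. In the pancreatic β cell, which makes very large amounts of insulin, this machinery carries a heavy load of protein synthesis.

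The members were a list of 36 genes, 20 cytosolic and 16 mitochondrial, found by the gene symbol that the platform annotation gives each probe. They have 77 of the 45281 probes on the array. Of the 36, 32 were tested, 19 cytosolic and 13 mitochondrial, among 12001 features in all. Dars was not analysed here, and Aars2, Hars2 and Yars2 were not detected on enough arrays to be kept. Mars, which the annotation lists under a newer name, was matched through its synonym.

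Expression was measured in MIN6, a mouse insulinoma line used as a model of the pancreatic β cell, with 12 arrays (Illumina MouseWG-6 v2), 2 for each of 6 groups, 1 array of each group on either of 2 slides. Cells were transfected with plasmids for the rtTA transactivator and for miR-184 under a tetracycline operator, so that doxycycline switches the microRNA on, and received 1 µg/ml of it for 16, 24, 48 or 72 hr. The transfected control carried both plasmids and no doxycycline, and the untransfected control received lipofectamine and doxycycline without plasmids. Against the transfected control an induced group thus differs in doxycycline as well as in miR-184, and these cannot be told apart there. The labels call the samples biological replicates and give no harvest time for either control; order on the slide followed the group, so that the 2 cannot be told apart. Transfection was transient, so a culture mixes cells that took up the plasmids with cells that did not, and fewer cells with a change cannot be told apart from a smaller change in each. The arrays did not measure miR-184 itself, whose mature sequence is shown because its induction is the treatment; the capitals mark the seed, bases 2 to 8 (RefSeq, GRCm38.p6, chromosome 9, from 89802263 to 89802284, minus strand).
mmu-miR-184-3p: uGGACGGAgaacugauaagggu

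The number of probes detected ranged from 15243 to 16737 per array. Of the 10 β-cell markers listed, 9 had a probe and each of these was detected on all 12 arrays, including Ins2, the insulin gene, and Pdx1. None of 6 ductal and stromal markers was kept, and of 4 acinar markers with a probe only Amy2a5 was kept, on 2 arrays. Of 4 markers of other islet cells, Gcg (glucagon) and Ppy were detected on all arrays. Gcg was lower at 72 hr than in the transfected control, by a log2 difference of -1.93 ± 0.29 (SE; limma, adjusted p = 0.0134). Its log2 signal was 14.16 and 14.34 on the control arrays, 12.85 and 11.79 at 72 hr. Ppy had a mean of 7.16 in the transfected control and 7.07 at 72 hr. Among the β-cell markers, the mean was also lower at 72 hr for Mafa (8.17 against 6.90), Chga, Slc2a2, Pdx1, G6pc2 and Ins2. It was higher for Iapp, Nkx6-1 and Slc30a8. Ins2 read 15.53 on every array except the second at 72 hr (15.37), so its lower mean rests on that array alone. The part of these markers in the results on the synthetases was not tested.

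At 72 hr, 2 cytosolic synthetases were higher than in the transfected control and 1 was lower, out of 19, when arrays were compared without regard to the slide (limma, adjusted p under 0.05). Over all 12001 features 2.73% were called higher and 2.75% lower in this fit. Arrays of the same slide deviated together, and with the slide as a block 7 cytosolic synthetases were higher and 2 lower, where 10.4% of all features were called higher and 8.76% lower. No call was made among the 13 mitochondrial synthetases without the block, and with the block 2 were higher. At an unadjusted p under 0.05 limma without the block gave 11 of the 19 cytosolic and 3 of the 13 mitochondrial enzymes, where 3070 of all 12001 features had such a p. The methods' t-test gave 1 mitochondrial enzyme at that limit and 0 after adjustment, and its share over all features was not counted. The median log2 difference was 0.34 over the 19 cytosolic and 0.06 over the 13 mitochondrial enzymes, against 0.00 over all features. These medians cover only members that passed the detection filter. Over the 17 and 12 detected on all arrays they were 0.34 and 0.02.

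**Figure D1:**
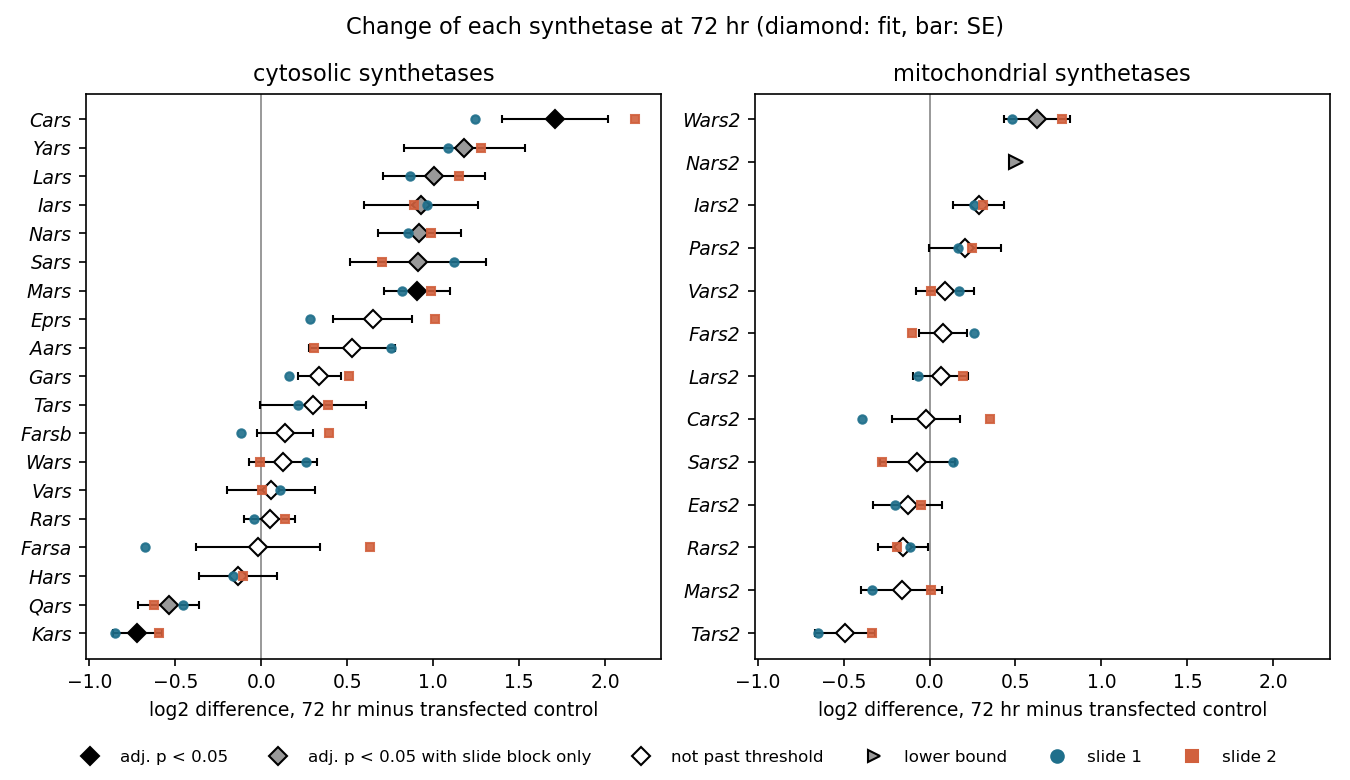
log2 difference of each tested synthetase at 72 hr of induction from the transfected control, cytosolic on the left and mitochondrial on the right. Diamonds with bars are the limma estimate and its SE (black, adjusted p under 0.05; grey, only with the slide as a block; white, neither), and coloured points are the differences within each slide. Nars2, whose control was not well above background, is drawn as a lower bound with neither bar nor points. Cars is highest at 1.71 and Kars lowest at -0.72, while the 12 other mitochondrial values lie between -0.49 and 0.63.

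Cars, which charges cysteine, had the largest difference among the members. Its log2 signal was 8.64 and 7.72 on the transfected control arrays, 8.68 and 8.56 in the untransfected control, and 9.89 on both arrays at 72 hr. In between it was 8.42 and 8.21 at 16 hr, 8.61 and 8.81 at 24 hr, and 8.69 and 9.55 at 48 hr. Both 72 hr arrays lay above all 10 others, and the second transfected control array was the lowest of the series. The difference at 72 hr was 1.71 ± 0.31 on the log2 scale, 3.27-fold (limma, adjusted p = 0.0212), with 1.24 on slide 1 and 2.18 on slide 2. Against the untransfected control it was 1.27 ± 0.31 (limma, adjusted p = 0.038). The other kept probes of Cars, which were dimmer, differed by 1.37 and 0.25, the widest range between probes of 1 member.

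Mars, which charges methionine and so also serves the initiator tRNA, had a log2 signal of 10.75 and 10.71 on the transfected control arrays and 11.57 and 11.70 at 72 hr. Untransfected arrays gave 10.66 and 11.00, and the earlier times 10.68 and 10.85 (16 hr), 10.74 and 10.85 (24 hr) and 11.06 and 11.66 (48 hr). The 72 hr arrays did not overlap the controls, and the slides gave 0.82 and 0.99. The difference was 0.90 ± 0.19 (SE; limma, adjusted p = 0.0313). Kars, which charges lysine in the cytosol and in mitochondria, went the other way. Its log2 signal fell by 0.72 from 10.97 and 10.75 in the transfected control to 10.12 and 10.16 at 72 hr (SE 0.14; limma, adjusted p = 0.0273), the 2 lowest values of the series. It was 10.78 and 10.90 in the untransfected control, 10.73 and 10.65 at 16 hr, 10.90 and 10.70 at 24 hr, and 10.46 and 10.32 at 48 hr. A second Kars probe gave -0.84.

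With the slide as a block, Nars, Lars, Yars, Iars and Sars were also higher at 72 hr. Lars, the leucine enzyme, which also senses leucine for mTORC1, had a log2 signal of 12.66 and 12.83 on the transfected control arrays and 13.52 and 13.98 at 72 hr, a difference of 1.01 ± 0.30 (limma, adjusted p = 0.0665, and 0.00905 with the block). The untransfected control had 12.67 and 12.95, and the times before 72 hr had 12.73 and 12.85 (16 hr), 12.90 and 12.89 (24 hr) and 12.67 and 13.88 (48 hr). Nars, for asparagine, had 10.05 and 10.09 in the control and 10.90 and 11.08 at 72 hr, a difference of 0.92 ± 0.24 (limma, adjusted p = 0.0509, and 0.0057 with the block), with 10.11 and 10.34 in the untransfected control, 9.85 and 10.05 at 16 hr, 9.96 and 10.26 at 24 hr, and 10.01 and 10.90 at 48 hr. In both genes the 72 hr arrays were above all arrays of the controls, 16 hr and 24 hr. Yars, the tyrosine enzyme, was dim in the transfected control, at 6.12 and 6.05, detected on 1 of the 2 arrays, and reached 7.20 and 7.33, a difference of 1.18 ± 0.35 (limma, adjusted p = 0.0668, and 0.00974 with the block). Its slide 2 array was above the slide 1 array in the untransfected control (6.79 against 6.12), at 16 hr (6.31 against 6.06), at 24 hr (6.31 against 5.91) and most widely at 48 hr (7.35 against 6.17).

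Iars and Sars show what the block does. Iars, for isoleucine, was 10.82 and 11.14 in the transfected control, against 11.79 and 12.03 at 72 hr. The other groups of Iars had 10.84 and 11.69 (untransfected), 10.64 and 11.12 (16 hr), 10.93 and 11.10 (24 hr) and 11.07 and 12.11 (48 hr). Sars, for serine and also the first enzyme on the path to selenocysteine, was 10.22 and 10.81 against 11.35 and 11.51, with 10.04 and 10.82 (untransfected), 10.04 and 10.35 (16 hr), 9.96 and 10.62 (24 hr) and 10.39 and 11.70 (48 hr). In each, the slide 2 array was the brighter one in all 6 groups, by a mean of 0.51 for Iars and 0.63 for Sars, and the differences within slides were 0.97 and 0.89 for Iars and 1.12 and 0.70 for Sars. Their differences of 0.93 ± 0.33 and 0.91 ± 0.39 had adjusted p = 0.109 and 0.172 in limma without the block, and 0.00776 and 0.0126 with it. Qars, the glutamine enzyme, fell with Kars. Its log2 signal was 10.44 and 10.34 in the transfected control, against 9.99 and 9.72 at 72 hr, a difference of -0.54 ± 0.18 (limma, adjusted p = 0.091, and 0.0349 with the block), and its other 2 kept probes gave -0.81 and -0.59. It was 10.44 and 10.16 in the untransfected control, 10.30 and 10.49 at 16 hr, 10.27 and 10.39 at 24 hr, and 10.10 and 9.69 at 48 hr.

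**Figure D2:**
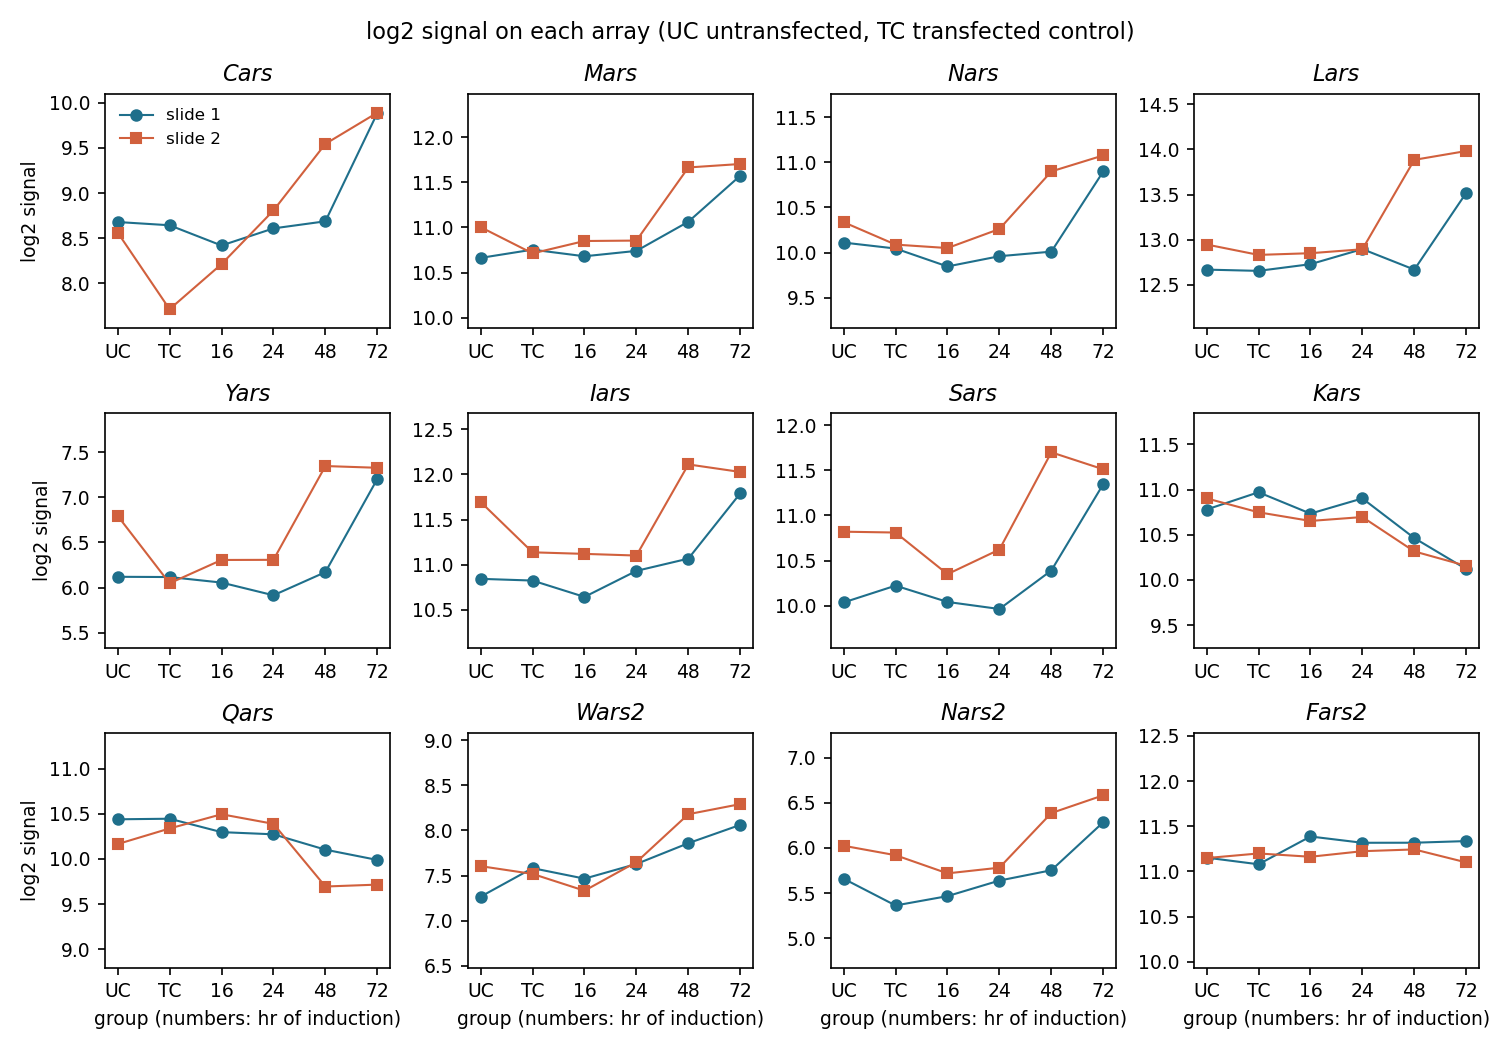
log2 signal of 12 synthetases on each array, by group (UC, untransfected control; TC, transfected control; numbers, hr of induction), all axes spanning the same range. Lines join the arrays of 1 slide. In Nars and Lars the slide 2 array is already near its 72 hr level at 48 hr (10.90 and 13.88) while the slide 1 array is not (10.01 and 12.67).

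The remaining cytosolic enzymes ranged from -0.14 to 0.65 at 72 hr and passed in neither fit. Eprs, the fused glutamate and proline enzyme, differed by 0.65 ± 0.23, Aars (alanine) by 0.53 ± 0.25 and Gars (glycine) by 0.34 ± 0.13, each with groups that did not overlap (limma, adjusted p = 0.0546, 0.0911 and 0.0626 with the block). At the other end were Farsa, Vars, Rars and Hars, those with the largest p. Farsa, the catalytic subunit of the phenylalanine enzyme, had 7.40 and 6.24 in the transfected control, against 6.73 and 6.87 at 72 hr, so that the 72 hr values lay between those of the control. Vars was 10.69 and 10.88 against 10.80 and 10.89, and Rars 11.39 and 11.29 against 11.35 and 11.43, both overlapping. Hars was detected on 1 array of either group, at 5.86 and 5.83 against 5.70 and 5.73. On the 8 arrays of the other groups Farsa ran from 6.33 to 7.03, Vars from 10.39 to 11.36, Rars from 11.08 to 11.62 and Hars from 5.43 to 6.36. In all, 11 of the 19 lay higher at 72 hr without overlap and 3 lower, where 26.8% of all features did so upward and 26.3% downward.

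The cytosolic enzymes called higher all lay on a list of known ATF4 targets. That list was drawn up with earlier results of these data known, so the split describes these arrays and supports nothing by itself. All 13 listed enzymes had a difference above 0 at 72 hr, with a median of 0.90. Of the 13, 11 lay above the control without overlap (26.8% of all features), 2 were called higher (2.73%), and 7 were with the block (10.4%). The 6 tested enzymes off the list (Farsa, Farsb, Hars, Kars, Qars and Rars) had a median of -0.08, none called higher and Kars called lower, with Qars too under the block. Wars and Vars are on the list and differed by 0.13 ± 0.20 and 0.06 ± 0.26. Over 9 ways of scaling and filtering, the listed median ran from 0.73 to 0.90 and the other from -0.08 to -0.02, with the all-feature median never farther from 0 than -0.01.

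The multi-synthetase complex did not move as 1 block. Of its 7 tested enzymes, Iars, Lars and Mars rose with the slide as a block, Kars and Qars fell, and Eprs (0.65) and Rars (0.05) passed in neither fit. Its 3 scaffold genes, Aimp1, Aimp2 and Eef1e1, differed by -0.09, -0.16 and -0.29, with no call. By catalytic fold, the median was 0.78 over 10 cytosolic class I enzymes and 0.30 over 9 of class II, and both classes hold enzymes that rose and enzymes that fell under the block.

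The letters TGATGNAA, the core of the element that ATF4 binds with C/EBP partners, were searched on both strands in RefSeq promoters, from 250 bases before to 50 after each start site (GRCm38.p6). Promoter entries matched 27 of the 36 members, and 4.51% of all 27025 genes with an entry hold the letters. They occur in 5 of 13 cytosolic and 0 of 14 mitochondrial members with an entry. The 5 are on the list of ATF4 targets, which has 8 members with an entry. They are Aars, Gars, Iars, Tars and Yars, and each had a difference above 0 at 72 hr. Windows of 4 of them are shown because these genes share the letters, with the match, or its reverse complement TTNCATCA, in capitals. The windows lie at chr6:55037961-55037988 for Gars, chr13:49682127-49682154 for Iars, and chr4:129189896-129189923 for Yars, all on the plus strand, and at chr15:11399656-11399683 on the minus strand for Tars.
Gars: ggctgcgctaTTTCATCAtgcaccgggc
Iars: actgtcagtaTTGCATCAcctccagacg
Tars: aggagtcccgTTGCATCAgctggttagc
Yars: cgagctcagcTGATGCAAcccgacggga
Of these 5 genes, Iars and Yars were called at 72 hr with the block, and Aars, Gars and Tars (0.30 ± 0.31) were not. The match and the call thus do not coincide. Mars and Sars, called higher with the block, had a promoter entry that does not hold the letters. Cars, Lars and Nars, also called higher with the block, had no promoter entry and were not searched. A match is a run of letters and was not tested as a binding site.

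Among the mitochondrial enzymes, Wars2 and Nars2 were the 2 called with the block. Wars2, for tryptophan, had a log2 signal of 7.58 and 7.52 in the transfected control, against 8.06 and 8.29 at 72 hr, the 72 hr arrays being above the controls, 16 hr and 24 hr. Those had 7.27 and 7.60 (untransfected), 7.47 and 7.33 (16 hr) and 7.63 and 7.65 (24 hr), and the 48 hr arrays 7.86 and 8.18. The difference was 0.63 ± 0.19 (limma, adjusted p = 0.0748, and 0.024 with the block). The other kept probe of Wars2, dimmer and detected on 3 arrays, gave 0.20, with 0.42 on slide 1 and -0.02 on slide 2. Nars2, for asparagine, was not well above background on either transfected control array (measured at 5.36 and 5.92) and was detected on both at 48 hr (5.75 and 6.39) and at 72 hr (6.28 and 6.58), which makes it at least 1.42-fold higher (limma, adjusted p = 0.111, and 0.0188 with the block). It was detected on 5 of the 12 arrays, so it passed the filter largely through the late groups, and its other arrays gave 5.66 and 6.02 (untransfected), 5.47 and 5.72 (16 hr) and 5.64 and 5.78 (24 hr).

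The 4 brightest mitochondrial probes belonged to Fars2, Rars2, Iars2 and Ears2. Fars2 (phenylalanine) was 11.08 and 11.20 in the transfected control, against 11.33 and 11.10 at 72 hr. Rars2 (arginine) was 10.60 and 10.53 against 10.48 and 10.34, Iars2 (isoleucine) 10.11 and 10.22 against 10.36 and 10.54, and Ears2 (glutamate) 9.02 and 9.33 against 8.81 and 9.28. None of the 4 passed in either fit, and their differences ran from -0.15 to 0.29. On the other 8 arrays Fars2 ran from 11.15 to 11.39, Rars2 from 10.40 to 10.71, Iars2 from 10.01 to 10.36 and Ears2 from 8.71 to 9.38. Tars2 (threonine) was lowest, at -0.49 ± 0.18 (limma, adjusted p = 0.111, and 0.0536 with the block).

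For 11 amino acids both enzymes were tested, so that compartments could be set side by side. The pair for asparagine is left out, because Nars2 has only a bound. The cytosolic enzyme had the larger difference at 72 hr in 8 of the other 10, in all 8 on both slides, and the median gap was 0.78 on the log2 scale. The widest gap was that of cysteine, 1.73, where Cars2 differed by -0.02. Methionine followed with 1.07, between Mars at 0.90 and Mars2 at -0.16. Tryptophan went the other way by -0.50, with Wars at 0.13 and Wars2 at 0.63, and valine was level, at -0.03. No test was made of these gaps.

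**Figure D3:**
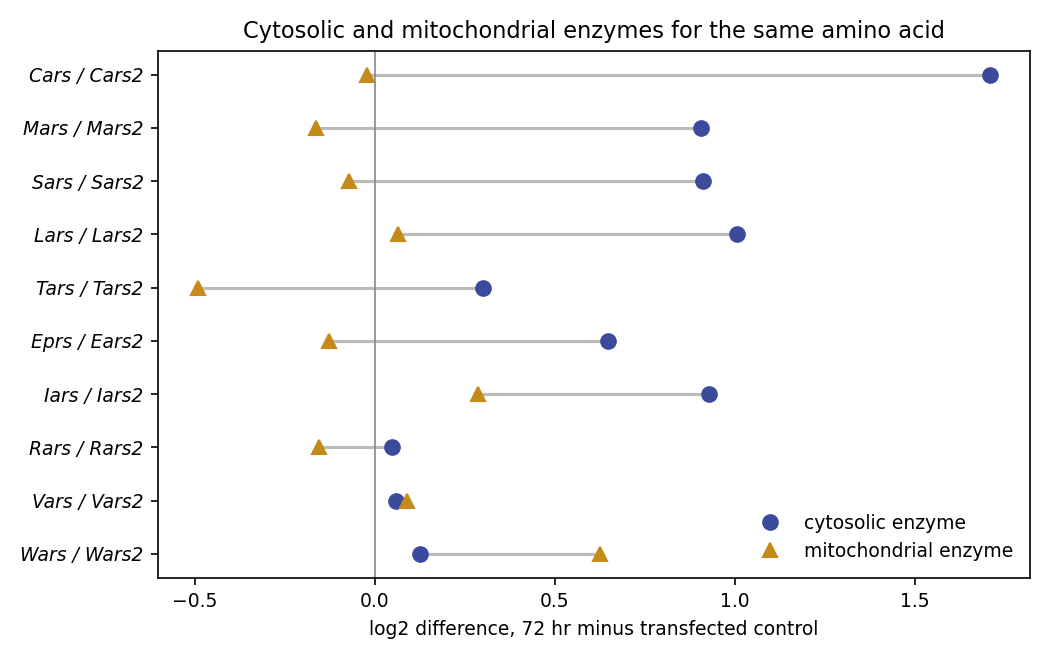
log2 difference at 72 hr from the transfected control of the cytosolic (circle) and mitochondrial (triangle) enzyme for the same amino acid, joined by a line and ordered by the gap. The circle lies to the right in 8 of 10 pairs, and Wars with Wars2 shows the reverse, with a gap of -0.50.

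At 16 and 24 hr no synthetase was called in limma with or without the block, and hardly any feature was: 0% of all features without it and at most 0.00833% (1 feature) in either direction with it. No synthetase had an unadjusted p under 0.05 in limma there. Of all 12001 features, 101 did at 16 hr and 138 at 24 hr without the block. The methods' t-test gave 1 mitochondrial member at that limit at 16 hr and 0 at 24 hr. The cytosolic medians were -0.10 and -0.01, and the mitochondrial medians -0.01 and 0.01. The 2 controls gave no call among the synthetases either, where again at most 0.00833% of all features were called. Between them the cytosolic and mitochondrial medians were -0.04 and 0.02. At an unadjusted p under 0.05 limma without the block gave 1 cytosolic member, against 109 of all 12001 features, and the t-test gave 1. On slide 2 alone the cytosolic median of the untransfected array was 0.19 above the transfected control, with 16 of 19 members above, and on slide 1 it was -0.01, with 9 above.

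At 48 hr the 2 arrays disagreed. The median over the 19 cytosolic enzymes was -0.03 on slide 1 and 0.64 on slide 2, while the mitochondrial medians were 0.01 and -0.01. On the slide 2 array all 13 enzymes on the ATF4 list were brighter than on any of the 8 arrays of the controls, 16 hr and 24 hr, and on the slide 1 array 1 was, Mars. At 72 hr 11 were on either array. The share of all features above that range was not counted, here or for the response genes below. No synthetase was called at 48 hr in limma in either fit, where 0.558% of all features were called higher and 0.392% lower with the block and none without it. At an unadjusted p under 0.05 limma without the block gave 4 cytosolic and 2 mitochondrial members, against 1296 of all 12001 features. The t-test gave 0. When the slide 1 array was left out, a choice made after seeing the data, Lars, Mars, Cars and Nars were called higher in limma, with 1.93% of all features, and 7 were with the block, with 4.3%. The 20 tested amino acid response genes split in the same way, 18 of them above the early arrays on slide 2 and 1 on slide 1, and Gcg was 13.75 on slide 1 and 13.06 on slide 2. The part of these in the difference between the arrays was not tested.

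**Figure D4:**
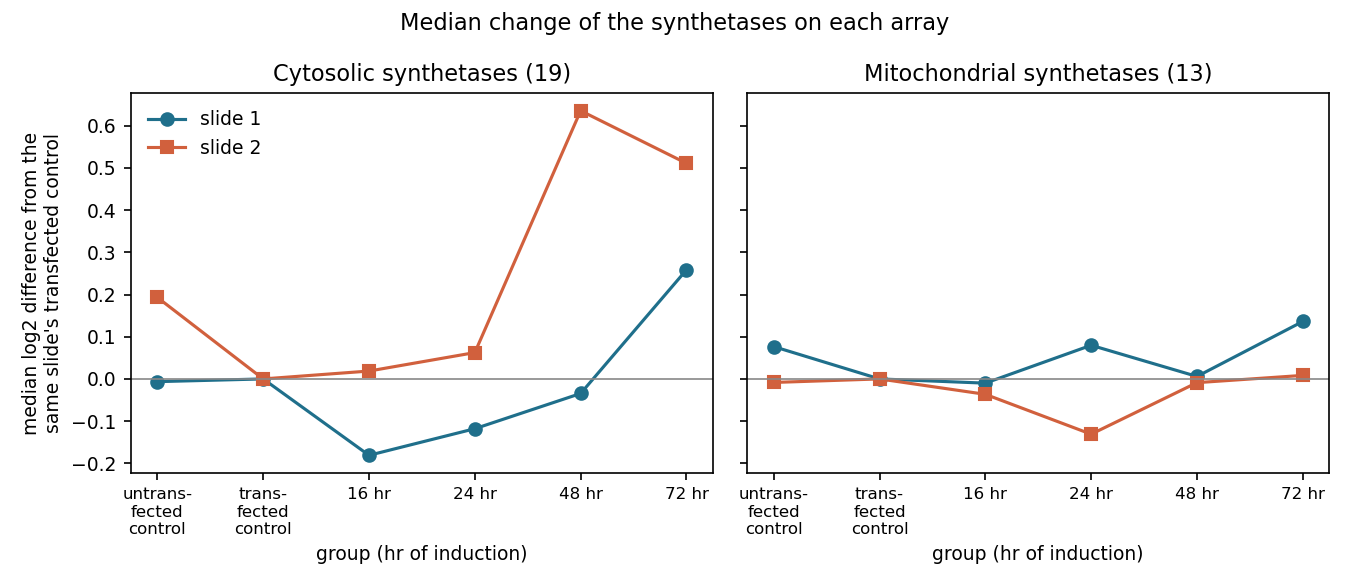
Median log2 difference from the transfected control of the same slide over the 19 cytosolic (left) and 13 mitochondrial (right) synthetases on each array, by group. The 48 hr arrays give -0.03 and 0.64 for the cytosolic enzymes, the 72 hr arrays 0.26 and 0.51, and the mitochondrial medians stay between -0.13 and 0.14.

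The calls at 72 hr depend on single arrays. Without the first transfected control array 1 cytosolic synthetase was called, without the second none was, and without the second 72 hr array none was, against 3 with all arrays. With the block, 8 or 9 were called without the first transfected control array or either 72 hr array, and 1 (Kars) without the second transfected control array. Single arrays of the other groups were not left out in this comparison. The 8 or 9 members called with the block were not the same in each of these fits. With the block Lars, Sars and Qars kept their directions, at 0.89 to 1.13, 0.63 to 1.19 and -0.63 to -0.45. The share of all features called was not counted in these fits, so whether the loss of calls is particular to the synthetases was not tested. The 2 mitochondrial calls became 0 without either control array or the second 72 hr array, and 1 (Wars2) without the first. The choice of probe mattered too. With a gene taken as the mean of its kept probes, Cars, Kars and Mars were no longer called (1.11, -0.78 and 0.78; limma, adjusted p = 0.0508, 0.0507 and 0.0749), while Eprs and Aars were called higher and Qars lower. The 48 hr arrays were the farthest apart, with a median SD over the members of 0.289 against 0.109 to 0.145 in the other groups. With both 48 hr arrays left out, which was tried after seeing the data, 7 cytosolic enzymes were called higher and 1 lower without the block, where 5.6% and 5.04% of all features were, and 10 higher and 2 lower with it, where 12.4% and 10.8% were. The 7 were Cars, Lars, Mars, Nars, Yars, Iars and Eprs, and the calls added by the block were Sars, Gars and Aars upward and Qars downward, with Wars2 and Nars2 higher and Tars2 lower among the mitochondrial enzymes.

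Between 16 and 72 hr no control enters the difference itself, while the spread was still estimated over all 6 groups. Cars, Mars and Nars rose, by 1.57 ± 0.31, 0.87 ± 0.19 and 1.04 ± 0.24 (limma, adjusted p = 0.0352, 0.0416 and 0.0451). In this comparison 1.62% of all features were higher and 1.44% lower. Such shares were not counted with 1 array left out. With the block 8 cytosolic enzymes were higher and 2 lower, against 9.99% and 8.65% of all features, and Wars2 and Nars2 were higher. Aars joined those called at 72 hr, with 12.09 and 12.23 at 16 hr and 13.16 and 12.80 at 72 hr, a difference of 0.82 ± 0.25 (limma, adjusted p = 0.0183 with the block). The 3 calls fell to 0 without either 16 hr array or without the second 72 hr array; with the block the 10 cytosolic calls became 0 without the second 16 hr array and were 7 or 8 without the first 16 hr array or either 72 hr array.

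Other genes of tRNA charging and translation were set beside the synthetases at 72 hr, where 2.73% of all features were called higher and 2.75% lower (10.4% and 8.76% with the block). Of 13 tested charging partners, which include Prorsd1, Gatc, Eef1e1 and Dtd1, none passed in either fit, and the median was -0.09. Of 7 cytosolic elongation factors none passed without the block. With it Eif5a, a translation factor that carries hypusine, was lower, by -0.49 ± 0.16 (limma, adjusted p = 0.0145), and Eef2k, the kinase that inhibits eEF2, was higher, at least 1.69-fold from a control not well above background (limma, adjusted p = 0.0183). Eef2k was detected on both arrays at 48 and 72 hr and on 1 other, so it passed the filter largely through the groups where it is high. Of 10 mitochondrial translation factors Tufm, the elongation factor that delivers charged tRNA to the mitochondrial ribosome, was lower. Its log2 signal was 12.05 and 12.02 in the transfected control, against 11.34 and 11.24 at 72 hr, a difference of -0.74 ± 0.15 (limma, adjusted p = 0.0306). Guf1 was higher with the block, by 0.93 ± 0.29, from a dim control (mean 6.16) detected on 1 of its 2 arrays.

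The amino acid response genes, which hold the best known ATF4 targets, had a median difference of 1.76 at 72 hr over the 20 tested. Of these, 9 were called higher (2.73% of all features) and 19 with the block (10.4%). The 20 include Atf3 and Slc3a2, detected on neither transfected control array, which passed the filter mainly through the late groups, and with both at their lower bound the median was again 1.76. Trib3, a pseudokinase that feeds back on ATF4, was 9.96 and 10.58 in the transfected control, against 13.05 and 13.43 at 72 hr, a difference of 2.97 ± 0.66 (limma, adjusted p = 0.0347). Vldlr, Sesn2 and Cebpg differed by 1.78 ± 0.33, 1.73 ± 0.35 and 1.54 ± 0.35 (limma, adjusted p = 0.0223, 0.0277 and 0.0359).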

How the data were processed

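Total RNA of MIN6 cells was hybridised to 12 single-colour bead arrays. The authors deposited non-normalized signal intensities (bead averages) with one detection p-value beside each intensity, and a second table of normalized intensities, for which the submitters' processing notes name lumi without a version. That table was used only as an alternative, set on the log2 scale here. The number of arrays limits the precision.

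The neqc function of limma 3.58.1 (R 4.3.3) corrected the background, added an offset of 16, normalized by quantiles and took log2. A probe was kept if its detection p was below 0.01 on 2 arrays or more (17556 probes), and the brightest kept probe stood for its gene, giving 12001 features. Probes were named by the platform annotation, which gives 34885 of them 1 symbol, 18 several and 10378 none. limma was fitted to all 6 groups (6 residual degrees of freedom) with Benjamini-Hochberg adjustment over all features and a threshold of 0.05. Replicate numbers follow the slide: residuals of same-numbered arrays correlated above 0.1 in 15 of 15 pairs of groups (0.21 to 0.63), so a second fit, in which slide was a block (5 residual degrees of freedom), is given where a call changed. A group with no array under the detection limit counts as not well above background; its fold is a lower bound against the dimmest detected signal of each array. Values of every array are given for members called at 72 hr in either fit. The 4 cytosolic members with the largest p and the 4 brightest mitochondrial ones were named too, with the arrays of the 4 groups outside the 72 hr comparison given as a range. The fits were run on simulated data with set changes and set noise, as a check of the code only, and no call made here rests on that. The alternatives were another offset, no background correction, median scaling, the deposited normalized values, 3 other detection filters, the mean of a gene's probes, fitting only the compared groups, the methods' t-test, the untransfected control as reference and leaving out arrays. The members and gene lists were chosen with earlier results of these data known. Plots were made in matplotlib 3.10.9 under Python 3.11.15. The promoter windows of Aars are not reported here.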

Additional observations from a re-analysis of the deposited data

Results flagged for a closer look

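For 3 synthetases the level differed between 72 and 16 hr of induction by the limma contrast of the 2 times. No control is known to match either time, so induction of miR-184 cannot be told apart from time in culture or from the length of doxycycline exposure. Cars differed by 1.57 ± 0.31 on the log2 scale (adjusted p = 0.0352, and 0.00538 with the slide as a block). Mars differed by 0.87 ± 0.19 (adjusted p = 0.0416, and 0.0042 with the block). Nars differed by 1.04 ± 0.24 (adjusted p = 0.0451, and 0.00412 with the block). In each, both 72 hr arrays were higher than both 16 hr arrays. With 2 arrays in a group, single arrays that stand apart within a group were not tested.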

How the results depend on the processing

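Numbers of calls moved more than directions. Shares of all features called were counted only for some alternatives below. These were the replicate block, the fit without the 48 hr arrays, and that without the slide 1 array at 48 hr. Whether other changes in count are particular to the synthetases was not tested. At 72 hr the 3 cytosolic calls became 9 with the slide as a replicate block, 6 when only the compared groups were fitted, 6 by the methods' t-test and 0 once that was adjusted, and 8 without the 48 hr arrays (12 with the replicate block). With the mean of a gene's probes the count was again 3, but of Eprs, Aars and Qars in place of Cars, Kars and Mars. Mars was also lost with median scaling (adjusted p = 0.0533), Kars with only the compared groups (adjusted p = 0.0704), and Cars by the unadjusted t-test. The mitochondrial count of 0 became 2 with the replicate block, 1 by the t-test, 1 against the untransfected control and 3 without the 48 hr arrays under the block. From 16 to 72 hr the 3 cytosolic calls became 10 with the replicate block, 1 with median scaling, 1 with the mean of a gene's probes, 8 with only the compared groups, and 10 by the t-test (0 adjusted), and the mitochondrial 0 became 2 with the replicate block and by the t-test, and 1 without background correction, with the deposited normalized values and with detection on all arrays. The t-test gave 1 mitochondrial member at 16 hr and 1 cytosolic member between the controls.

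Leaving out 1 of the 4 arrays compared gave 0 to 3 cytosolic calls at 72 hr (1 to 9 with the block), 0 to 4 at 48 hr (0 to 7), and 0 to 3 from 16 to 72 hr (0 to 8). Mitochondrial calls ran from 0 to 1 with the block at 72 hr and from 0 to 1 from 16 to 72 hr (0 to 2 with the block). Cars kept its direction, at 1.24 to 2.17, as did Mars, at 0.84 to 0.97, and Kars, at -0.83 to -0.61.

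The cytosolic median from 16 to 72 hr, 0.44, was 0.37 with an offset of 50, 0.35 without background correction, 0.41 with median scaling, 0.37 in the deposited normalized values and 0.33 over the mean of probes, and 0.32 to 0.65 with 1 array left out. That between the controls ran from -0.20 to -0.044. The mitochondrial median at 16 hr was 0.010 with median scaling, 0.019 against the untransfected control and -0.085 to 0.051 with 1 array left out, that at 48 hr 0.041 against the untransfected control and -0.023 to 0.042, and that from 16 to 72 hr 0.029 to 0.13.

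Members near 0 at 72 hr changed sign. Farsa was 0.037 with median scaling and 0.11 against the untransfected control, where Rars was -0.047, Cars2 0.17 and Sars2 0.19, and Pars2 was -0.023 over its probes' mean. With 1 array left out Farsa ran from -0.60 to 0.56, Farsb from -0.029 to 0.31, Vars from -0.039 to 0.15, Cars2 from -0.28 to 0.24, Ears2 from -0.36 to 0.11, Fars2 from -0.039 to 0.20, Lars2 from -0.024 to 0.15, Mars2 from -0.47 to 0.15 and Sars2 from -0.21 to 0.071. The cause of these changes was not tested. Where an arm kept 1 array, that array was assumed to vary like the other groups. Dim members (Hars, Yars and Nars2) were near background in some groups, which limits their folds.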
